A study of Mus musculus with 99 samples.

Results

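MTF2 chromatin immunoprecipitation and sequencing (ChIP-seq) was assayed in 11 of the 99 samples of the series. These are all samples whose antibody is labelled MTF2, and each was deposited as 1 list of peaks in mm10 (GRCm38) coordinates. Parental cells are ROSA26::creERT2 RING1A-/-; RING1B fl/fl mouse embryonic stem cells (ESCs). Every line therefore lacked RING1A, and 4-hydroxytamoxifen (OHT, 0.5 µM) activates Cre from the ROSA26 locus to delete the floxed RING1B. RING1B WT and RING1B I53S are clones of Parental cells picked under puromycin. They carry a stable tagged transgene under a CAG promoter, for wild-type RING1B or for a mutant that the authors describe as catalytically inactive. Each line was assayed with ethanol vehicle, in which endogenous RING1B is still present, and after 48 h or 72 h of OHT in 2i/LIF medium. RING1B WT and RING1B I53S had 2 libraries each at 72 h, and every other condition had 1. The times are those of the sample titles, except that the first 72 h replicate of RING1B WT and of RING1B I53S is titled OHT without hours and takes its time from the treatment protocol, which names 72 h for every sample.

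MTF2 is a Polycomb-like protein that binds DNA at unmethylated CpG islands and brings in the histone methyltransferase PRC2, whose core consists of SUZ12, EED and EZH1 or EZH2 and which deposits H3K27me3. Complexes with MTF2, PHF1 or PHF19 are called PRC2.1 and may also hold EPOP. Complexes with JARID2 and AEBP2 are called PRC2.2, and JARID2 can bind H2AK119ub1, the histone mark deposited by RING1A and RING1B as the ligases of PRC1. In ESCs both complexes occupy promoters of silent developmental genes. The OHT course sets MTF2 binding with endogenous RING1B beside binding without RING1B (Parental) or with active RING1B (RING1B WT). In RING1B I53S cells the RING1B left can assemble into complexes, and the authors describe it as fully inactive in ubiquitination.

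Because CpG density differed between the DNA where MTF2 peaks remained and the DNA where they did not, stretches of 150 bp are shown from loci the results turn on. All are the plus strand of the RefSeq genome GRCm38.p6 with each CpG in capitals, and each window was chosen outside exons as the one whose CpG density was nearest to that of its whole stretch. At Plxnd1, which encodes a semaphorin receptor, the first stretch lay in an intron and was covered in all 11 libraries, and the second lay upstream and was covered in the 3 vehicle libraries but in neither Parental nor RING1B I53S cells at 72 h.
Plxnd1 still covered, chr6:115993317-115993466: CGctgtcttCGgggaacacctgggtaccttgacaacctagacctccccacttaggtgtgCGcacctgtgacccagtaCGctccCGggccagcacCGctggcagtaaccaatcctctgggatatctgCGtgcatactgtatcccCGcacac
Plxnd1 no longer covered, chr6:115996030-115996179: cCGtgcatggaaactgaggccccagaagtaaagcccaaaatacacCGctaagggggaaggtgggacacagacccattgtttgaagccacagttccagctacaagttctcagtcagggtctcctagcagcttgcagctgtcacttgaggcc
Ccn1, encoding a secreted matricellular protein, and Igdcc4, encoding a receptor of the immunoglobulin superfamily, lay at loci with no peak at 72 h in Parental or RING1B I53S cells, and both windows are intronic.
Ccn1 locus without a peak, chr3:145648922-145649071: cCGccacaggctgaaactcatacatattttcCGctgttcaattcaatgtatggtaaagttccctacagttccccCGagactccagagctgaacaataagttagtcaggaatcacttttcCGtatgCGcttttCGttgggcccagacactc
Igdcc4 locus without a peak, chr9:65102099-65102248: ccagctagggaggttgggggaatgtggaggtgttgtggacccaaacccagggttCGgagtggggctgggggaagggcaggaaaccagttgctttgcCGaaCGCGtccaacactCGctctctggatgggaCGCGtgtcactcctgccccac
The Plxnd1 windows held 8 and 2 CpG, and the Ccn1 and Igdcc4 windows 6 and 7. Over the whole stretches Ccn1 had 3.97 and Igdcc4 4.98 CpG per 100 bp, and the third absent locus, Il15ra, had 2.78. All 3 lay between the still covered (6.26) and the uncovered stretch (1.47) of Plxnd1. The stretches covered in all 11 libraries at Neurod2 (3.59) and at Hoxb3 to Hoxb9 (3.85) were less dense than Ccn1 and Igdcc4. Between different loci, CpG density therefore did not separate these kept and absent examples.

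The lists held 24485, 8806 and 7774 peaks in Parental cells at vehicle, 48 h and 72 h. In RING1B WT cells they held 13559 peaks at vehicle, 10752 at 48 h and 8629 and 8335 in the 2 libraries at 72 h, and in RING1B I53S cells 11623, 9681, 3091 and 7546. The Parental vehicle list was the longest, and the shortest was the first RING1B I53S library at 72 h, which covered 3.63 Mb against 11.2 Mb in the second. The first 72 h replicate of each line is the one titled without hours, and the second is titled like the 48 h libraries. Of the 3091 peaks of the short list 94.2% overlapped the second list, and 36.5% of the second list overlapped the short one, whereas the RING1B WT pair overlapped by 83.7% and 86.2%. Promoters, taken as 2.5 kb on either side of a transcription start, held 59.3% to 86.9% of the peaks of a list. The input lists used were those of H3K27me3 ChIP-seq in clones with MTF2 disrupted, and held only 9 to 19 peaks each. They overlapped 0 to 16 peaks per MTF2 list, and with so few input peaks the overlap could hardly be large. Chromosome 11, with 4.48% of the genome and 7.47% of protein-coding gene names, held 11.97% to 16.1% of the MTF2 peaks of a list. Read numbers are not known from peak lists, and the peak score (−log10 p of MACS2, at least 10) grows with depth, so shares of loci lead below. Scores of libraries are given side by side as the lists hold them, and a difference between 2 libraries includes any difference in depth. Peak numbers skipped within the lists made up 28.8% in Parental and 31.3% and 31.8% in RING1B I53S at 72 h, against 19.2% and 19.8% in RING1B WT. What removed those peaks is not known, and its part in the shares below was not tested.

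The first question was whether MTF2 stayed at the sites of RING1B itself. At the 3941 loci that held RING1B in RING1B WT cells with OHT, MTF2 peaks were found at 91.7%, 86.8% and 80.5% in Parental cells at vehicle, 48 h and 72 h. In RING1B WT cells the shares were 89.9% at vehicle, 89.2% at 48 h and 89.4% and 88.3% at 72 h. For RING1B I53S they were 89.3% at vehicle, 83.9% at 48 h and 51.6% and 76.8% at 72 h. The share was thus lower at each later time in Parental and RING1B I53S cells and hardly moved in RING1B WT cells. Against the vehicle of the same line the difference at 48 h was -4.85 percentage points in Parental (95% Newcombe interval over loci -6.21 to -3.48), -5.43 in RING1B I53S (-6.93 to -3.93) and -0.634 in RING1B WT cells (-1.99 to 0.718). At 72 h it was -11.2 points in Parental (-12.7 to -9.68), -25.1 in RING1B I53S (-26.9 to -23.3, from the mean of both libraries) and -1.01 in RING1B WT cells (-2.38 to 0.348). Taken singly, the RING1B I53S libraries gave -37.7 and -12.5 points. Both lie outside the interval of their mean, which leaves out the spread between libraries. The intervals of this paragraph cover counting error over loci only, since vehicle and 48 h had 1 library per line. They treat the shares compared as independent although both were taken over the same loci, so their width is approximate. The differences in Parental and RING1B I53S cells were larger with stricter peaks: with a score of at least 20, the share in Parental cells went from 90.7% to 63.4% at 72 h and in RING1B I53S cells from 87.7% to 25.6% and 56.5%.

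**Figure D1:**
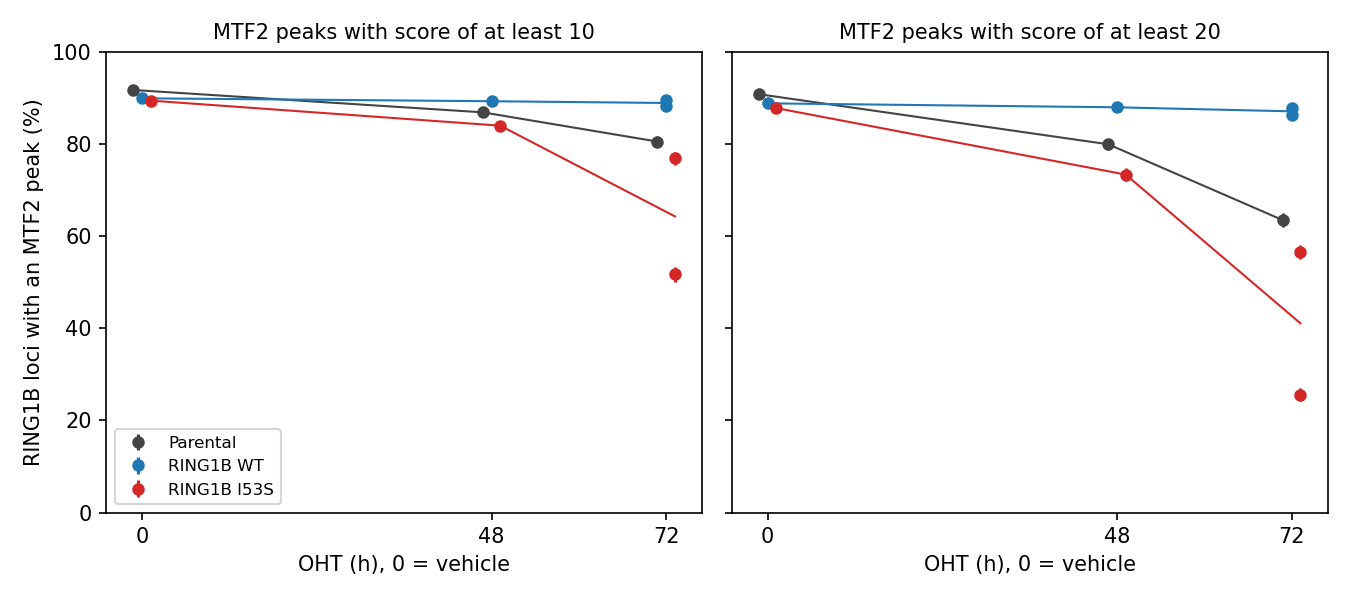
Share of the 3941 RING1B loci with an MTF2 peak (y axis, percent) at vehicle, 48 h and 72 h of OHT (x axis) in each line for peaks with a score of at least 10 (left) and at least 20 (right), with 1 point per library (shifted slightly sideways), 95% Wilson bars and lines through the mean of each time. On the left RING1B WT stays between 88.3% and 89.9%, Parental reaches 80.5%, and the 2 RING1B I53S libraries at 72 h lie apart at 51.6% and 76.8%.

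The only comparison with 2 libraries on each side was RING1B I53S against RING1B WT at 72 h. RING1B loci with MTF2 made up 64.2% ± 17.8 (SD, n = 2) in RING1B I53S and 88.8% ± 0.825 (SD, n = 2) in RING1B WT cells, a difference of -24.6 points (exact permutation test, two-sided, p = 0.333, the smallest that 2 against 2 allow). Both RING1B I53S libraries lay below both RING1B WT libraries. Within the pair of libraries titled without hours the difference was -37.8 points and within the other pair -11.4, so its size rested on the short list. The 3091 highest peaks of each list are the whole list in the first RING1B I53S library, with scores down to 11.1, and the top of the others, with scores down to 24.3 in the second and to 156 and 101 in RING1B WT cells. The share of these that lay on RING1B loci was 70.2% and 64.9% in RING1B I53S and 88.8% and 84.1% in RING1B WT cells, with differences of -18.6 and -19.2 within the pairs (exact permutation p = 0.333). In Parental cells that share was 83.9% at vehicle, 77.2% at 48 h and 70.1% at 72 h. Since the sets reach down to different scores, the part of list length in this measure was not tested.

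All 11 lists merged into 25557 loci, of which 10058 had a peak in all 3 vehicle libraries and are called vehicle loci here. At 72 h a peak remained at 62.2% of vehicle loci in Parental cells, at 72.9% and 73.2% in RING1B WT and at 25.7% and 58.4% in RING1B I53S cells. At 48 h the shares were 71.9%, 86.5% and 70.6%. Parental and both RING1B I53S libraries at 72 h shared 2460 kept vehicle loci (24.5%), and 3180 (31.6%) had a peak in none of the 3. RING1B WT cells also lacked a peak at 72 h in both libraries at 1957 vehicle loci (19.5%), and of the 3180 absent loci 1017 had a peak in both RING1B WT libraries. Between RING1B I53S and RING1B WT at 72 h the share of vehicle loci kept differed by -31.0 points (42.0% ± 23.1 against 73.0% ± 0.211, SD, n = 2, exact permutation p = 0.333), or -47.1 and -14.8 within the pairs of libraries. The kept loci were mostly the strong ones: of the quartile of vehicle loci with the highest vehicle scores, 98.4% were kept in Parental and 67.8% and 95.9% in RING1B I53S cells at 72 h, and of the lowest quartile 27.5%, 3.14% and 27.4%. RING1B WT cells showed the same order, with 100% of the highest and 22.9% and 21.6% of the lowest quartile.

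The 3 loci with the highest vehicle scores among those found in all 11 libraries were Neurod2, Hoxb3 to Hoxb9 and Plxnd1. Neurod2, encoding a neuronal basic helix-loop-helix factor (chr11:98313078-98344691), scored 5926, 1361 and 652 in Parental cells at vehicle, 48 h and 72 h. In RING1B WT cells it scored 2197, 1826, 1285 and 1270, and in RING1B I53S cells 1996, 1233, 178 and 504. Every OHT library lay below its vehicle, and the 2 RING1B I53S libraries at 72 h were the lowest of all. The Hoxb3 to Hoxb9 locus (chr11:96266593-96331171) scored 4692, 551 and 244 in Parental, 1802, 1433, 1278 and 1032 in RING1B WT and 1514, 824, 120 and 383 in RING1B I53S cells. The Plxnd1 locus (chr6:115986934-115999072) followed the same order, with 4839, 576 and 256 in Parental, 1648, 1105, 1172 and 858 in RING1B WT and 1303, 410, 116 and 234 in RING1B I53S cells. At Hoxb and Plxnd1, Parental at 48 h was already below both RING1B WT libraries at 72 h, whereas at Neurod2 it was above them.

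Ccn1, Igdcc4 and Il15ra were the loci of highest vehicle score with no peak in Parental or either RING1B I53S library at 72 h. The Ccn1 locus (chr3:145647754-145654414) scored 620 at vehicle and 18.2 at 48 h in Parental cells and 129 and 15.4 in RING1B I53S cells, while RING1B WT cells had 205, 92.5, 162 and 77.4. Igdcc4 (chr9:65100526-65104303) scored 567 and 26.4 in Parental and 165 and 11.9 in RING1B I53S cells before its peak was gone, and 172, 88.2, 127 and 99.5 in RING1B WT cells. Il15ra, encoding the alpha chain of the interleukin-15 receptor (chr2:11704146-11708771), scored 603 and 25.3 in Parental, 153 and 26.8 in RING1B I53S and 159, 116, 140 and 104 in RING1B WT cells. At each of the 3 the score at 48 h lay between 11.9 and 26.8 in both lines, near the minimum of 10, so the absence at 72 h followed a low value at 48 h. Only 1 locus had a peak in Parental and both RING1B I53S libraries at 72 h and none at vehicle. It covered a promoter of Tnks, encoding tankyrase (chr8:34964615-34965808), with scores of 11.01 to 14.6 there and 20.7 in the first RING1B WT library at 72 h.

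Over the 2386 loci with a peak in all 11 libraries the median score was 681, 81.3 and 45.4 in Parental cells at vehicle, 48 h and 72 h. RING1B WT cells had medians of 213, 151, 165 and 106 and RING1B I53S cells 178, 66.0, 18.3 and 40.0. The median log2 ratio to the vehicle of the line was -3.80 in Parental at 72 h, -0.45 and -0.97 in RING1B WT and -3.16 and -2.10 in RING1B I53S cells. The Parental ratio starts from the highest vehicle median (681 against 213 and 178). At 72 h the Parental median (45.4) lay above both RING1B I53S libraries (18.3 and 40.0). The part of the Parental vehicle library in this ratio was not tested. The loci also grew narrower: the median length covered was 0.524 of the vehicle length in Parental at 72 h, 0.787 and 0.819 in RING1B WT and 0.358 and 0.662 in RING1B I53S cells.

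What remained within these loci was the CpG-dense DNA. In Parental cells at 72 h, 49.3% of the vehicle peak bases of the 2386 loci were still covered and held 5.30 CpG per 100 bp, against 1.94 in the bases no longer covered. In the RING1B I53S libraries at 72 h, 33.1% and 61.3% were still covered, with 7.47 and 5.40 CpG per 100 bp against 2.53 and 2.21. RING1B WT cells gave the same contrast over less lost DNA: 75.9% and 79.6% of bases were still covered at 72 h, with 4.86 and 4.61 CpG per 100 bp against 1.55 and 1.92. Among loci with at least 200 bp of each kind, the covered bases were the denser ones at 2218 of 2309 loci in Parental and at 2312 of 2357 and 1951 of 2048 loci in RING1B I53S cells. The direction was therefore shared by all lines, and the lines differed in how much DNA was uncovered. At Plxnd1, printed above, the stretch covered in all 11 libraries had 6.26 CpG per 100 bp over 2780 bp and the uncovered one 1.47 over 814 bp. At Neurod2 the stretches had 3.59 CpG per 100 bp over 16371 bp and 0.707 over 1131 bp. A peak is narrower when its library is shallower, and the part of depth in this contrast was not tested.

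**Figure D2:**
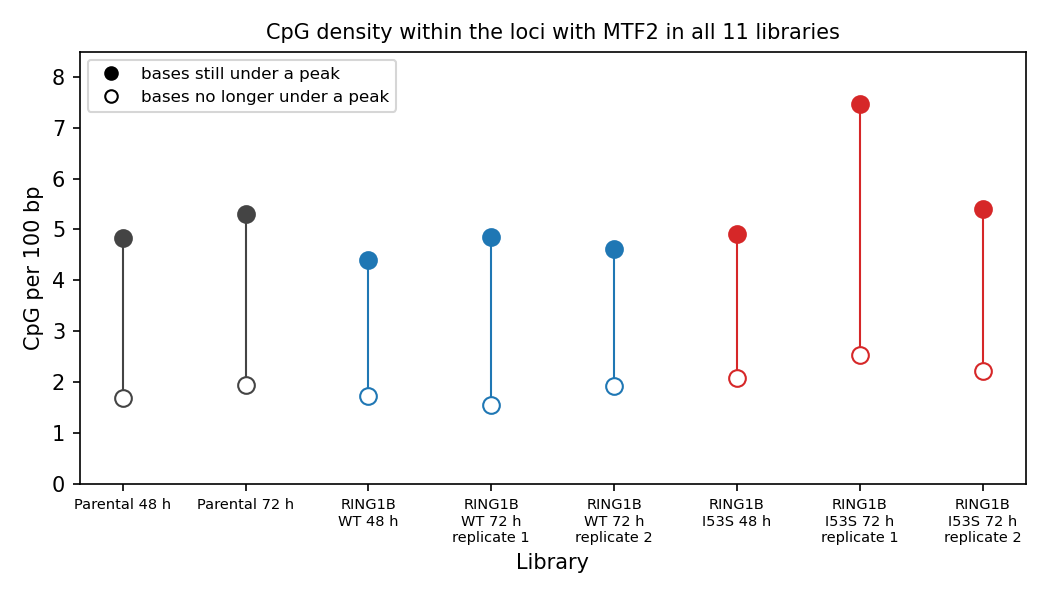
CpG per 100 bp (y axis) of bases still covered and no longer covered by an MTF2 peak in each OHT library (x axis), over the 2386 loci with a peak in all 11 libraries. Still covered bases are the denser ones in every library, from 4.39 in RING1B WT at 48 h to 7.47 in the first RING1B I53S library at 72 h.

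Whole loci followed CpG density as well. In a window of 500 bp at the highest RING1B I53S vehicle peak, the 10058 vehicle loci had a median of 5.4 CpG per 100 bp, the 2460 kept loci 7.2 and the 3180 absent loci 4.0, against 0.6 in 5125 windows spread over the genome. Within the quartile of lowest vehicle score the 50 kept loci had a median of 9.9 and the 1578 absent loci 3.6, and within the next quartile 188 kept and 1163 absent loci had 9.2 and 4.4. In the highest quartile the medians were 6.8 for 1690 kept and 4.8 for 25 absent loci. With the loci split into 5 bins of CpG density, from the lowest to the highest bin, the share of vehicle loci kept at 72 h went from 50.4% to 77.8% in Parental cells. For RING1B I53S it went from 19.4% to 44.5% and from 45.3% to 78.1%, and in the RING1B WT libraries from 57.2% to 84.3% and from 65.9% to 74.1%. The order was not strict at the bottom, where the next bin was kept less often in Parental (47.7%) and RING1B I53S cells (14.1% and 42.2%). In the densest bin, Parental and the second RING1B I53S library kept a larger share than the second RING1B WT library (77.8% and 78.1% against 74.1%), whereas over all vehicle loci they kept less.

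**Figure D3:**
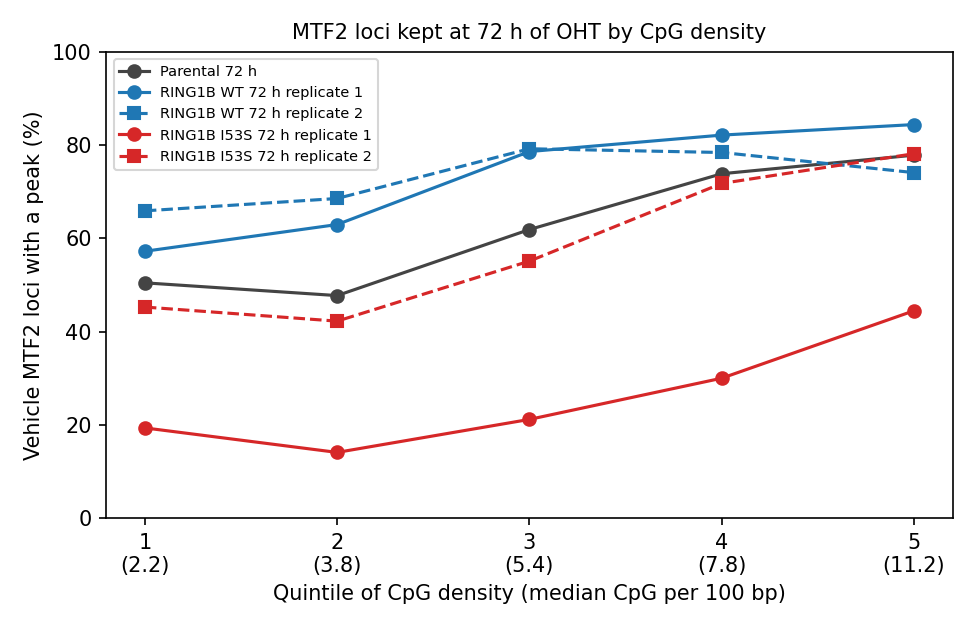
Share of vehicle loci with an MTF2 peak (y axis, percent) by 5 bins of CpG density (x axis, CpG per 100 bp) in each library at 72 h. RING1B I53S runs from 19.4% to 44.5% and from 45.3% to 78.1%, and only its replicate 2 passes RING1B WT replicate 2 (74.1%), in the densest bin.

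The 50 weak but kept loci mostly held a promoter (47 of 50), and 10 of them had no peak in either RING1B WT library at 72 h. The 3 promoter loci of lowest vehicle rank among them were singled out after the values were seen. The shared promoter of Gatc and Triap1 scored 30.1, 16.9 and 20.5 in Parental cells, from 10.7 to 17.3 in the 4 RING1B I53S libraries, and 10.7 at vehicle with no later peak in RING1B WT cells. Fbxw7, encoding a substrate receptor of a ubiquitin ligase, scored 23.8, 16.8 and 18.1 in Parental and 12.1, 20.9, 12.6 and 13.3 in RING1B I53S cells, with 11.7 and 12.9 at vehicle and 48 h and none at 72 h in RING1B WT cells. Anp32a, encoding an acidic nuclear protein, scored 22.3, 30.7 and 35.5 in Parental, 13.3, 18.3, 11.1 and 36.2 in RING1B I53S and 10.1, none, 11.1 and none in RING1B WT cells. Its score at 72 h was thus above vehicle in Parental and in the second RING1B I53S library. A score above the vehicle of the same line was found at 40 of 6260 vehicle loci with a peak in Parental at 72 h, at 33 of 2587 and 610 of 5871 in RING1B I53S and at 1018 of 7328 and 125 of 7358 in RING1B WT cells. In both RING1B I53S libraries at once it was found at 21 loci, with a median of 10.4 CpG per 100 bp. Vehicle scores, which set the bar here, were highest in Parental cells, and their part in these counts was not tested.

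The Hox clusters, whose genes encode homeodomain factors of body axis patterning, showed the narrowing over long domains. MTF2 peaks covered 97.5% of Hoxa (chr6:52155590-52260880) in Parental cells at vehicle, 45.4% at 48 h and 29.0% at 72 h. RING1B WT cells had 90.9%, 86.8%, 73.0% and 78.4%, and RING1B I53S cells 86.6%, 65.5%, 20.5% and 45.2%. The number of separate Hoxa peaks went from 5 to 18 and 16 in Parental, from 9 to 12, 14 and 12 in RING1B WT and from 11 to 16, 14 and 16 in RING1B I53S cells. It was above vehicle in every line, with the largest gain in Parental cells, whereas Hoxb had 14, 14 and 15 peaks in Parental cells. The highest Hoxa score went from 2307 to 160 and 77.3 in Parental cells. Hoxc (chr15:102921103-103036852) was the least covered cluster in Parental cells (19.3%) and the first RING1B I53S library (10.1%) at 72 h, beside 46.0% in the second and 63.7% and 71.3% in RING1B WT cells. Hoxd (chr2:74668310-74765142) kept 28.9%, 16.0% and 40.3%, and 69.7% and 73.3% in RING1B WT cells. Hoxb (chr11:96194316-96368256) kept the most in the cells without active RING1B, 37.6% in Parental and 28.2% and 53.5% in RING1B I53S, against 63.3% and 64.8% in RING1B WT cells. In all 4 clusters both RING1B I53S libraries and Parental lay below both RING1B WT libraries at 72 h.

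**Figure D4:**
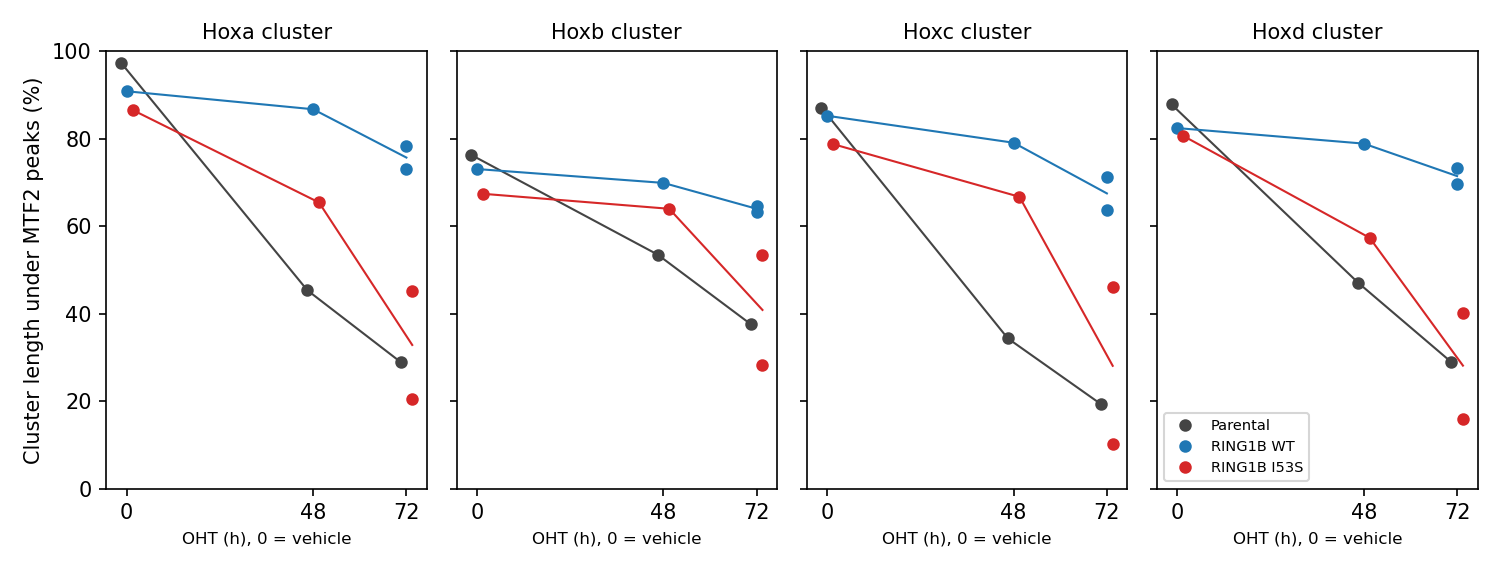
Percent of each Hox cluster covered by MTF2 peaks (y axis) at vehicle, 48 h and 72 h of OHT (x axis) in each line, with 1 point per library (shifted slightly sideways) and lines through the mean of each time. At 72 h Hoxc is covered at 10.1% to 46.0% in RING1B I53S and Parental libraries and at 63.7% and 71.3% in RING1B WT.

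Promoters were read against all 21924 protein-coding gene names. An MTF2 peak lay in the promoter of 50.3%, 28.5% and 24.8% of these in Parental cells at vehicle, 48 h and 72 h, of 36.1%, 30.3%, 27.7% and 24.7% in RING1B WT and of 32.8%, 29.5%, 11.3% and 25.2% in RING1B I53S cells. All 28 listed developmental regulators had a peak in the 3 vehicle libraries, and 27 in Parental and 24 and 27 in RING1B I53S cells at 72 h. Lhx1, a homeodomain factor of head and kidney development, scored 3195, 442 and 267 in Parental, 1016, 816, 726 and 608 in RING1B WT and 932, 402, 61.8 and 221 in RING1B I53S cells. Gata2, a zinc finger factor of blood development, scored 3192, 193 and 97.7 in Parental, 930, 649, 847 and 421 in RING1B WT and 649, 137, 43.4 and 68.2 in RING1B I53S cells. The peaks of this list therefore remained in nearly all libraries at lower scores, with medians of 1750 to 87.1 in Parental from vehicle to 72 h and 510 to 37.8 and 68.2 in RING1B I53S cells. The list member with a peak in none of these 3 libraries was Tbx3, which scored 80.1 in Parental at vehicle and 13.0 in RING1B I53S at vehicle. T, the mesoderm factor brachyury, was singled out after its values were seen. It scored 148 at vehicle in RING1B WT cells and 298, 282 and 148 with OHT, and in RING1B I53S cells 117 at vehicle, 118 at 48 h and 30.7 and 59.7 at 72 h.

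At vehicle every gene of each Hox list had a promoter peak, like the developmental regulators. The pluripotency, housekeeping and PRC2 subunit lists held lower shares of MTF2 promoters than these. Of 12 PRC2 subunit genes, 7 had a peak at vehicle in Parental and 3 in RING1B WT and in RING1B I53S cells. All protein-coding names had 50.3%, 36.1% and 32.8%. The PRC2 subunit and pluripotency counts are therefore not read as a trait of these lists. Of 11 Hoxa genes, 10 in Parental and 9 and 10 in RING1B I53S cells had a promoter peak at 72 h, and all 10 Hoxb genes did in these 3 libraries. Of 9 Hoxc genes, 6 in Parental and 7 and 8 in RING1B I53S cells did. Of 9 Hoxd genes, 8 in Parental and 7 and 8 in RING1B I53S cells did. Of 12 pluripotency genes, 6 had a peak in Parental and 4 in RING1B WT and RING1B I53S cells at vehicle. Esrrb, an orphan nuclear receptor of the naive state, scored 1753, 327 and 180 in Parental, 617, 546, 256 and 375 in RING1B WT and 536, 280, 54.9 and 172 in RING1B I53S cells. Dppa3, a maternal and germ cell factor, scored 347 in Parental at vehicle with no later peak, 89.9 and 11.7 in RING1B I53S with none at 72 h, and 96.8, 53.4, 33.5 and 60.7 in RING1B WT cells. Of 10 housekeeping genes, 3 had a peak in Parental at vehicle, 1 at 72 h and 0 in every RING1B WT library. Among 12 genes of PRC2 subunits, Mtf2 itself had no promoter peak in any library. Phf19, a Polycomb-like relative of Mtf2, had one in all 11, with scores of 1138, 79.0 and 46.0 in Parental, 385, 168, 138 and 131 in RING1B WT and 283, 50.2, 12.8 and 39.6 in RING1B I53S cells.

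The kept and absent classes differed in the proteins found there by the other antibodies. They also differed in MTF2 itself at vehicle, with a median score of 258 against 25.9 and a median length covered of 3394 against 1267 bp. The part of vehicle score and length in the shares of other antibodies, here and below, was not tested. In untreated Parental cells 80.3% of the 2460 kept and 15.8% of the 3180 absent loci held RING1B, 97.3% and 58.1% SUZ12, and 96.7% and 87.4% JARID2, and 92.0% and 58.7% overlapped a promoter. Vehicle loci with RING1B in untreated Parental cells (4248) kept MTF2 at 84.5% in Parental at 72 h, 98.3% and 96.5% in RING1B WT and 48.5% and 79.2% in RING1B I53S cells. Those without RING1B (5810) kept it at 46.0%, at 54.2% and 56.1% and at 9.05% and 43.2%. Loci without RING1B also had fewer MTF2 peaks with OHT in RING1B WT cells, so the gap between lines was seen on both kinds of locus. At 1164 vehicle loci without JARID2 in untreated Parental cells the order of the lines was different at 72 h. Parental kept 50.3% and RING1B I53S 8.51% and 56.1%, against 29.7% and 24.4% in RING1B WT cells. The first RING1B I53S library lay below and the second above both RING1B WT libraries, so the order of these 2 lines at such loci was not settled by the data.

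Of the 3091 highest peaks of each list, which reach down to the different scores given above, those off the RING1B loci numbered 497, 706 and 923 in Parental, 541, 505, 347 and 491 in RING1B WT and 530, 946, 921 and 1086 in RING1B I53S cells. At 72 h in RING1B I53S, 55.6% and 64.5% of these held H3K27me3 and 79.2% and 83.7% JARID2 in untreated Parental cells. For the RING1B WT libraries at 72 h the shares were 96.5% and 98.0% for H3K27me3 and 99.7% and 100% for JARID2.

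PRC2 itself was found at the kept loci. With 72 h of OHT, SUZ12 lay at 98.4% of kept and 5.69% of absent loci in Parental, at 87.2% and 0.881% in RING1B I53S and at 97.0% and 27.6% in RING1B WT cells. EPOP, like MTF2 a subunit of PRC2.1, lay at 69.6% and 0.629% in Parental, 71.8% and 0.818% in RING1B I53S and 95.3% and 41.8% in RING1B WT cells. In RING1B I53S cells with 72 h of OHT, H3K27me3 lay at 71.9% of kept and 8.27% of absent loci. The series also holds SUZ12 lists from MTF2KO cells, clones in which MTF2 was disrupted with Cas9. There SUZ12 was found at 58.3% of the kept loci in Parental cells at vehicle and at 16.5%, 61.7% and 3.41% in Parental, RING1B WT and RING1B I53S cells with 72 h of OHT. The MTF2KO lists were shorter throughout, with 1801, 4634 and 706 peaks against 5811, 7156 and 3475 with MTF2 present. SUZ12 was thus found at fewer kept loci without MTF2 in all 3 lines, with values of 98.4% against 16.5% in Parental, 97.0% against 61.7% in RING1B WT and 87.2% against 3.41% in RING1B I53S cells. Each of these is 1 library or list per condition, so they have no replicate check.

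JARID2 was profiled in the same lines and times and marks PRC2.2. At loci with both proteins in the vehicle of the line (13316 in Parental), MTF2 remained at 51.6% and JARID2 at 20.0% at 48 h, and at 43.7% and 9.01% at 72 h. In RING1B I53S cells (6281 loci) MTF2 remained at 78.6% and JARID2 at 14.3% at 48 h, and at 36.2% and 67.2% against 14.2% and 5.57% at 72 h. In RING1B WT cells (6986 loci) the shares at 72 h were 87.4% and 88.5% for MTF2 and 74.8% and 77.5% for JARID2. The difference at 72 h was 34.6 points in Parental (95% interval over loci 33.7 to 35.6) and 41.8 in RING1B I53S cells (40.3 to 43.2). These intervals treat shares of the same loci as independent and leave out the spread between libraries. With 1 MTF2 library left out, the RING1B I53S difference was 57.3 or 26.2 points. The OHT lists of JARID2 were much shorter, with 1404 peaks at 72 h in Parental and 1080 and 446 in RING1B I53S cells. When the same number of highest peaks was taken from every list (1404 in Parental, 446 in RING1B I53S), an alternative added after the data were seen, the difference reversed to -1.27 points in Parental (66.5% for MTF2, 67.8% for JARID2, 1255 loci) and -10.7 in RING1B I53S cells (58.0% and 68.8%, 368 loci). With the 3091 highest MTF2 peaks set beside the 1404 (Parental) or 446 (RING1B I53S) highest JARID2 peaks, MTF2 remained at 88.2% and JARID2 at 64.0% in Parental cells (1385 loci) and at 94.7% and 57.6% in RING1B I53S cells (471 loci). Among the alternatives run, only equal numbers of peaks of both proteins reversed the direction. That setting drops MTF2 peaks that were still called, so it cannot tell list length from loss of peaks. With a score of at least 20 the difference was 33.0 points in Parental and 34.2 in RING1B I53S cells. With 50% of each locus covered it was 18.9 and 24.7.

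The RNA-seq of the same lines (2 libraries per group, 8140106 to 12743460 counts each) was used to ask what the genes under MTF2 did after 72 h of OHT. A gene was called in edgeR when its log2 fold change was 1.5 or more in size with an adjusted p (FDR) under 0.05, and 18154 of 55341 gene names passed the filter on low counts. Of all genes tested, 15.1% were higher and 1.83% lower in Parental, 1.34% and 0.0386% in RING1B WT and 12.8% and 1.04% in RING1B I53S cells. Of 9168 gene names with an MTF2 promoter peak in all 3 vehicle libraries 6382 were tested, and 2093 (32.8%) rose in Parental, 186 (2.91%) in RING1B WT and 1865 (29.2%) in RING1B I53S cells, while 49, 4 and 20 fell. Of 2943 names that kept MTF2 in Parental and both RING1B I53S libraries, 2028 were tested, and 924 (45.6%) rose in Parental and 881 (43.4%) in RING1B I53S cells. Of 1990 names without MTF2 in these 3 libraries, 1312 were tested, and 360 (27.4%) and 310 (23.6%) rose. Of genes with no MTF2 peak in any library, 7267 were tested, and 376 (5.17%) rose and 231 fell in Parental cells. Genes rose in both classes, those that kept MTF2 and those that did not. Genes that passed the filter only through OHT libraries had to differ, so the shares are a description. Of all target names, tested or not, 22.8% rose in Parental and 20.3% in RING1B I53S cells. The shares were 31.4% and 29.9% of names that kept MTF2 and 18.1% and 15.6% of names without it. The part of vehicle score in the gap between these classes was not tested. The OHT effect itself differed between RING1B I53S and RING1B WT cells at 40 targets that were higher and 7 that were lower (all genes 0.226% and 0.204%), and between Parental and RING1B WT cells at 209 and 22 (all genes 1.23% and 0.837%), by the interaction test of edgeR. The RING1B WT count rested on single libraries, with 15 genes without vehicle replicate 2 and 25 without OHT replicate 2.

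**Figure D5:**
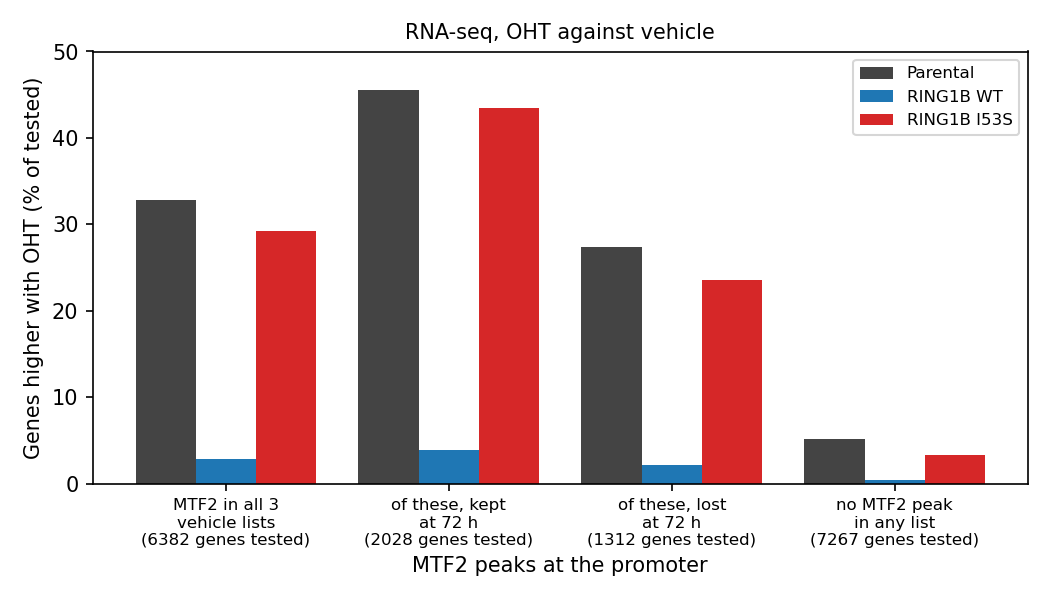
Percent of tested genes called higher after 72 h of OHT (y axis) by MTF2 class of the promoter (x axis) in each line. Genes that kept an MTF2 peak of any score reach 45.6% in Parental and 43.4% in RING1B I53S, and RING1B WT stays below 4% in each class. Tested genes include those that passed the filter on low counts only through OHT libraries, which had to differ.

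Gata3, a zinc finger factor of trophoblast and other lineages that kept its MTF2 peak, rose from 0.489 and 0.494 to 52.9 and 51.8 CPM, counts scaled to a common library size, in Parental cells (log2 fold change 6.70 ± 0.361 SE, edgeR FDR = 7.02e-10). In RING1B I53S cells it went from 0.927 and 0.672 to 35.6 and 36.8 CPM (5.46 ± 0.329, edgeR FDR = 6.94e-09) and in RING1B WT cells from 1.60 and 1.21 to 4.93 and 7.60 CPM (2.13 ± 0.335, edgeR FDR = 0.00277). The groups did not overlap in any line, and the rise was smallest in RING1B WT cells. The Gata3 promoter peak scored 1284 at vehicle and 55.7 at 72 h in Parental cells. In RING1B I53S cells it scored 537 at vehicle and 10.4 and 63.7 at 72 h. Ccnd2, encoding cyclin D2, also kept MTF2 and rose by 5.78 in Parental, 4.99 in RING1B I53S and 2.23 in RING1B WT cells on the log2 scale. Esx1, a homeobox gene of extraembryonic tissue, had lost its MTF2 peak in Parental and RING1B I53S cells at 72 h and rose from 9.61 and 6.55 to 226 and 215 CPM in Parental and from 11.9 and 7.003 to 156 and 175 CPM in RING1B I53S cells. Manba, encoding the lysosomal beta-mannosidase, had also lost MTF2 but fell, from 513 and 488 to 49.8 and 50.0 CPM in Parental (log2 fold change -3.33, edgeR FDR = 2.93e-09) and from 398 and 452 to 41.6 and 63.8 CPM in RING1B I53S cells. In RING1B WT cells Manba had 444 and 474 CPM at vehicle and 348 and 278 with OHT (log2 fold change -0.55, edgeR FDR = 0.144). Of the other targets named by lowest p, Etv5, encoding an ETS factor, fell by 2.28 on the log2 scale in Parental cells, Arid5b, encoding an AT-rich interaction domain protein, by 2.12 in Parental and 1.74 in RING1B I53S cells, and Chac1, an enzyme of glutathione breakdown, by 2.43 in RING1B I53S cells.

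At the loci described above, Plxnd1 rose by 2.92 in Parental and 2.90 in RING1B I53S cells on the log2 scale with its peak kept. Ccn1, whose peak was gone, went from 5.70 and 2.60 to 160 and 338 CPM in Parental cells (log2 fold change 5.85) and rose by 4.92 in RING1B I53S and by 3.77 in RING1B WT cells, where its peak remained. Il15ra was low throughout, with 0.163 and 0.865 CPM at vehicle and 4.01 and 3.802 with OHT in Parental cells, where it rose (log2 fold change 3.04, edgeR FDR = 0.00241). In RING1B WT cells its log2 fold change was 3.08 (edgeR FDR = 0.129), and the difference between these 2 lines was -0.04 (edgeR FDR = 0.986). In RING1B I53S cells it rose from 0.232 and 0 to 3.91 and 4.48 CPM. Igdcc4 stayed under the fold threshold in Parental cells (0.88, edgeR FDR = 0.0142), and Neurod2 was too low to be tested.

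Of the listed developmental regulators 27 of 28 were tested, and 20 rose and 1 (Zic2) fell in Parental cells, 2 (Gata3 and Pax3) rose in RING1B WT and 20 rose in RING1B I53S cells, with medians of 3.45, 1.45 and 3.39 on the log2 scale beside 0.03, 0.02 and 0.01 over all genes. Of 11 Hoxa genes 7 were tested, and 7, 3 and 6 rose in Parental, RING1B WT and RING1B I53S cells, with medians of 5.46, 4.54 and 5.18 on the log2 scale. No Hox gene tested passed the interaction test between lines (lowest edgeR FDR = 0.0503, Hoxa7, Parental against RING1B WT), so a difference between the lines is not shown by these counts. Of 10 Hoxb genes 7 were tested, and 7, 1 and 7 rose. Genes of these lists that passed the filter only through OHT libraries had to differ, so the counts are a description. Among 12 PRC2 subunit genes Phf19 alone was called, with a rise of 1.75 ± 0.405 (SE, edgeR FDR = 0.00233) in Parental and 2.13 ± 0.404 (edgeR FDR = 0.000592) in RING1B I53S cells. Mtf2 RNA was at 483 and 489 CPM in vehicle and 375 and 319 CPM in OHT in Parental cells (log2 fold change -0.49 ± 0.173, edgeR FDR = 0.0353) and at 408 and 493 against 341 and 292 CPM in RING1B I53S cells (-0.51 ± 0.173, edgeR FDR = 0.0333). It was not called by the fold threshold in any line, and in RING1B WT cells the log2 fold change was -0.05 (edgeR FDR = 0.932). Rnf2, the gene of RING1B, had 198 and 257 CPM at vehicle and 144 and 167 with OHT in Parental cells, where a count over the whole gene cannot check the deletion of a part of it.

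Marker genes of cell types moved with these results. The summed level of 7 ESC markers was 3162 to 4062 CPM at vehicle and 1109 to 1166 with OHT in Parental, 2731 to 3437 and 1297 to 1315 in RING1B I53S and 2809 to 3547 and 2597 to 2623 in RING1B WT cells. Such a sum follows its most abundant genes. Of the 7 markers 3 were called lower in Parental, 2 in RING1B I53S and 0 in RING1B WT cells. Of all genes tested 1.83%, 1.04% and 0.0386% were lower. All 4 primitive endoderm markers rose in Parental and RING1B I53S cells, with sums of 1.47 to 2.35 CPM at vehicle and 23.8 to 24.96 with OHT in Parental cells. Of 3 trophoblast markers Cdx2 and Krt8 rose in Parental cells, where the sum was 36.2 to 39.4 CPM at vehicle and 112 to 117 with OHT, and Elf5 was too low to be tested. The sum of fibroblast feeder markers was 11.87 to 14.01 CPM at vehicle and 45.7 to 48.3 with OHT in Parental cells, where 2 of 4 rose and Col3a1 was too low to be tested. In RING1B I53S cells 1 trophoblast and 1 fibroblast marker were called higher. Of all genes tested 15.1% were higher in Parental and 12.8% in RING1B I53S cells. In bulk samples a change in the share of cells and a change per cell cannot be told apart, and the part of cell makeup in the MTF2 and RNA values was not tested.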

How the data were processed

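MTF2 ChIP-seq was measured in 11 libraries of 3 ESC lines. The authors aligned paired reads to mm10 with Bowtie 1.2.2 without multimapping reads, removed duplicates with samblaster and called peaks per sample with MACS2 2.1.1. The deposited peak score is the −log10 p of MACS2, with a minimum of 10. Of the peak numbers 19.2% to 31.8% are skipped in each list, and the filter behind this is not given in the sources used here. For RNA-seq the authors deposited counts per gene name from STAR 2.7 and featureCounts, unstranded, on GENCODE M21, so overlapping and antisense genes share reads. The 4 other columns of the count table were not used.

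Peaks of the 11 lists were merged into loci at an overlap of 1 bp. Shares carry Wilson intervals and differences of shares Newcombe intervals (95%), which cover counting error over loci only. The Newcombe intervals treat shares of the same loci as independent. Depth is unknown for the ChIP libraries. Replicates are separate samples, and nothing says that they are separate cultures, so p-values measure the spread between these samples. RNA was tested with edgeR 4.0.16 (quasi-likelihood, TMM, filterByExpr, 12 libraries in 1 fit, Benjamini-Hochberg over 18154 genes, BCV 0.181). In simulated data for this fit, 46 of 50 genes with a log2 change of 2 were recovered. The changed genes all rose and were drawn from those above about 1 CPM at Parental vehicle, with a common dispersion. The recovery therefore does not cover genes lower than that at vehicle. Replicate numbers of RNA libraries were not taken as pairs. The deviations of replicates from their group means correlated between -0.0033 and 0.301 across groups.

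Promoters were 2.5 kb on either side of starts in GENCODE M21, and CpG was counted in the RefSeq genome GRCm38.p6 (Python 3.11.15, NumPy 2.4.6, SciPy 1.17.1). The members and the gene lists were chosen with earlier results of these data known. Genes were named by rule: the 3 loci of best vehicle rank found in all 11 libraries, the 3 absent at 72 h from Parental and RING1B I53S, loci new there, the listed members of highest vehicle score, and the 3 targets of lowest adjusted p per direction in Parental and RING1B I53S cells. Alternatives were the score minimum, equal numbers of top peaks, coverage of 50% of a locus, RING1B loci of untreated Parental cells, libraries left out, DESeq2 1.42.0, RLE size factors, no filter on low counts, a replicate block and a promoter of 1 kb. Leaving out chromosome 11 and taking equal top peaks of MTF2 and JARID2 were added after the data were seen.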

Additional observations from a re-analysis of the deposited data

Results flagged for a closer look

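The OHT effect on RNA differed between lines at MTF2 targets, by a test of the difference itself in edgeR (interaction of line and OHT, FDR under 0.05 over all genes). Between RING1B I53S and RING1B WT cells 47 of 6382 tested targets differed, 40 with a higher and 7 with a lower response in RING1B I53S cells. Gata3 differed by 3.33 on the log2 scale (edgeR FDR = 0.00348), Esx1 by 2.45 (edgeR FDR = 0.00337) and Manba by -2.46 (edgeR FDR = 0.000132).

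Between Parental and RING1B WT cells 231 targets differed, 209 with a higher and 22 with a lower response in Parental cells. Gata3 differed by 4.57 (edgeR FDR = 0.000106) and Manba by -2.77 (edgeR FDR = 2.0e-05). Between Parental and RING1B I53S cells edgeR called 0 targets, with 254 at an unadjusted p under 0.05, which does not show that the lines responded alike.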

How the results depend on the processing

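Every difference of MTF2 shares between OHT and vehicle, and between RING1B I53S and RING1B WT, kept its direction under the alternatives run. With a score of at least 20 the difference to vehicle was -10.9 points in Parental at 48 h, -27.3 in Parental at 72 h, -14.4 in RING1B I53S at 48 h and -46.7 in RING1B I53S at 72 h. With equal numbers of top peaks it was -13.1, -21.1 and -15.6 in Parental at 48 h and 72 h and RING1B I53S at 48 h, and -0.127 in RING1B WT at 72 h. With 50% of a locus covered, Parental at 72 h gave -14.2 and RING1B I53S at 48 h -7.21. On RING1B loci of untreated Parental cells the values were -9.76, -19.4, -10.6 and -3.06 (Parental 48 h and 72 h, RING1B I53S 48 h, RING1B WT 72 h). MTF2 kept minus JARID2 kept in Parental cells was 33.0, 24.2 and 18.9 with the score of 20, equal MTF2 top peaks and 50% coverage. It reversed to -1.27 in Parental and -10.7 in RING1B I53S cells with equal top peaks of both proteins. That setting drops MTF2 peaks that were still called, so it cannot tell list length from loss of peaks. The cause of these shifts was not tested.

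Leaving out 1 library in turn gave -37.7 to -12.5 for RING1B I53S at 72 h against vehicle, -1.60 to -0.431 for RING1B WT, -37.2 to -12.0 for RING1B I53S against RING1B WT, -47.3 to -14.6 for vehicle loci kept and 26.2 to 57.3 for MTF2 against JARID2 in RING1B I53S cells. Targets higher in RNA ranged over 1693 to 1924 (Parental), 15 to 200 (RING1B WT) and 1304 to 1851 (RING1B I53S), and lower over 37 to 49, 0 to 3 and 19 to 34. The arm left with 1 sample is assumed to vary like the others.

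Without the filter on low counts 344 targets were higher in RING1B WT cells. By FDR alone 312, 16 and 194 targets were lower in Parental, RING1B WT and RING1B I53S cells, and with an MTF2 score of at least 20, 30, 2 and 13. With the replicate block 2152 targets were higher and 51 lower in Parental, 210 and 4 in RING1B WT and 1914 and 22 in RING1B I53S cells, and it moved no count by over 1.5 times. The replicate numbers of the ChIP libraries do not pair them, and the differences within pairs of like titles are values with no test, since each arm then has 1 library. RING1B I53S minus RING1B WT at 72 h was -46.0 points with a score of at least 20, within the wide spread of the RING1B I53S libraries. Peak lists without reads leave depth as the main limit: a missing peak is a score under 10 or a peak taken out by the filter that skipped numbers, not an absence of MTF2.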

Other observations

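Of the 25557 loci, 10568 had a peak in 1 library only, and 9531 of these were in the Parental vehicle list. The 3941 RING1B loci lay on chromosome 11 at 18.0%, beside the 11.97% to 16.1% of MTF2 peaks given above. In RING1B I53S cells at 48 h, 1202 of 7103 vehicle loci with a peak (16.9%) scored above their own vehicle, against 27 of 7232 (0.373%) in Parental and 968 of 8696 (11.1%) in RING1B WT cells at the same time. The bar differed between lines, with a median vehicle score over the 2386 loci of 681 in Parental, 213 in RING1B WT and 178 in RING1B I53S cells. The part of vehicle score in these counts was not tested. RING1B I53S at 48 h also had the most loci without a peak in any vehicle library, 652, or 7.33% of its loci. The ranks of scores over the 2386 loci found in all libraries correlated between pairs of libraries with Spearman's rho of 0.504 to 0.977, as a description across loci that share DNA and depth.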
